A study of Solanum lycopersicum with 6 samples.

Results

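The loci described here are 5 stress and ripening protein genes of tomato fruit, 2 dehydrins and 3 ASR genes, among the 35768 gene models of the deposited table. They were chosen by identifier: Solyc02g084850, the TAS14 dehydrin, Solyc04g082200, a second dehydrin, and Solyc04g071610, Solyc04g071580 and Solyc04g071620, 3 ASR genes of a cluster on chromosome 4. All 5 were in the table and all 5 passed the filter of a mean of at least 1 FPKM, so none was lost to low values. RNA came from the pericarp, the fruit wall, at the shoulder of the fruit of Solanum lycopersicum cultivar Ailsa Craig at 30 DPA, and was sequenced from 3 wild type (WT) libraries and 3 libraries of slgols2, a knock-out made with CRISPR-Cas9. Plants of both genotypes grew in a greenhouse, and neither the number of edited lines nor whether a library was 1 fruit, 1 plant or a pool is given in the labels, so the spread behind each p-value is that between libraries and may be technical. The table carries no gene names, and the level of the edited gene was not analysed here.

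Dehydrins are very hydrophilic proteins of the late embryogenesis abundant (LEA) class that accumulate in drying seeds and in tissues short of water, where they are thought to protect membranes and proteins. TAS14 was described in tomato as a dehydrin induced by salt stress and abscisic acid (ABA), the hormone of water shortage that also takes part in fruit ripening. ASR proteins, named after abscisic acid, stress and ripening, are small hydrophilic zinc-binding proteins found in the cytosol and the nucleus, and in tomato they are encoded by a row of neighbouring genes. Galactinol synthase, abbreviated GolS, makes galactinol, from which raffinose family sugars are built, and these like dehydrins are made under water shortage.

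The names rest on the identifiers and were set against the RefSeq gene table of assembly SLM_r2.1, which holds 0 of the table's identifiers but does hold symbols. Its TAS14 gene lies on chromosome 2 after 69.8% of the protein-coding genes there, and Solyc02g084850 comes after 69.5% of the gene models numbered on chromosome 2. On chromosome 4 the reference has 4 genes with ASR symbols within a stretch of 5 protein-coding genes, between 64.7% and 64.9% of the way. The table has 5 identifiers ending in 0 from Solyc04g071580 to Solyc04g071620, and the 3 ASR loci among them come after 64.9% to 65.0% of the chromosome 4 models. Which ASR symbol belongs to which identifier was not settled, so the ASR loci are called by identifier. Solyc04g082200 had no symbol to be set against.

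Depth was between 15593387 and 17941974 fragments per library. The libraries of slgols2 were not alike: over tested models, replicate 3 correlated at 0.849 and 0.869 with slgols2 replicates 1 and 2, and at 0.878 to 0.903 with the WT libraries. The heat shock list of 11 loci summed to 21510 and 13900 FPKM in slgols2 replicates 1 and 2 and to 587 FPKM in replicate 3, against 670 to 1154 FPKM in WT. Where stated, results are given without slgols2 replicate 3 as well.

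The comparison of slgols2 with WT asks whether these transcripts stood at another level without a working edited gene. None of the 5 loci passed an adjusted p of 0.05 over all tested models (limma on log2(FPKM + 1), Benjamini-Hochberg), where 0.229% of the 15695 models passed. An unadjusted p under 0.05 was found for 2 of the 5, both of them ASR loci with lower levels in slgols2, against 12.0% of all tested models (6.72% lower in slgols2). Fitted with limma-voom to the recovered reads, the comparison likewise called 0 of the 5, with the same 2 under an unadjusted p of 0.05. That fit called 0 models (0.00%) in all and had 11.8% of models under the unadjusted 0.05. The same 2 ASR loci were the only members whose groups did not overlap, which held for 19.2% of tested models (9.59% with all WT above all slgols2). In mean log2(FPKM + 1), 3 of the 5 were lower in slgols2, as were 49.9% of all tested models. The median log2 difference over the 5 was -1.59, and over all tested models it was 0.00. The 5 differences ran from -2.33 to 0.44. That of TAS14, -1.64, had a standard error of 1.67, so the median of so few loci is uncertain. In bulk tissue, fewer cells of a type and less RNA per cell cannot be told apart.

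**Figure D1:**
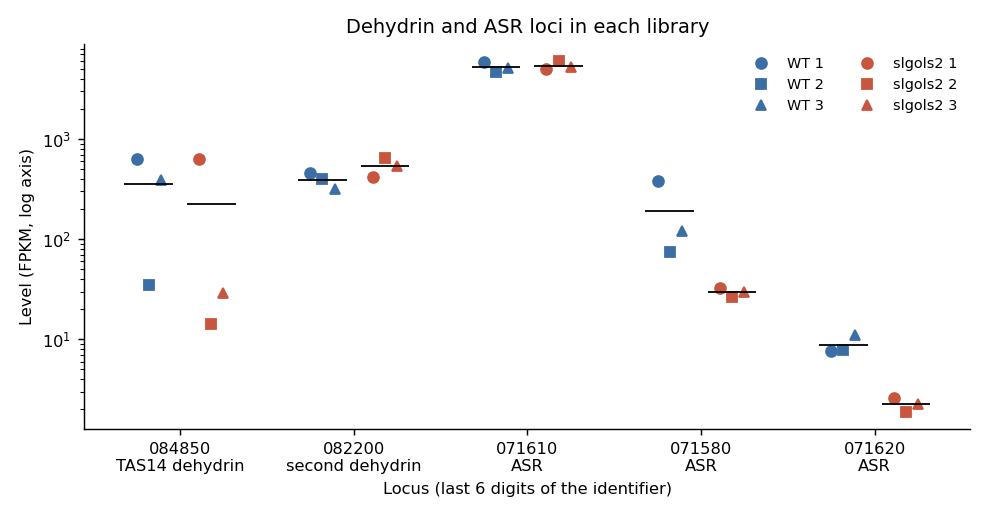
Level of each dehydrin and ASR locus in every library (FPKM, log axis), with WT in blue, slgols2 in red, a marker shape per replicate number and a black line at each group mean. Solyc04g071610 stood between 4707 and 5958 FPKM in all 6 libraries, Solyc04g071580 and Solyc04g071620 had all WT points above all slgols2 points, and Solyc02g084850 had high and low libraries in both groups.

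FPKM is scaled by a gene length, which the recovered values put at 702 to 1680 bases for the 5 loci. Among list loci it reached 13049 bases, for Solyc07g066480. Whether that length counts introns is not given in the sources used here. The order below is therefore one of FPKM and may differ from that of transcript abundance. The ASR locus Solyc04g071610 was the highest of the 5 in every library and Solyc04g071620 the lowest in every library. Between them the order changed. In WT replicates 1 and 3 and slgols2 replicate 1 the TAS14 dehydrin came second, before Solyc04g082200 and Solyc04g071580. In WT replicate 2 and slgols2 replicates 2 and 3 it came after both. Over the 6 libraries the ranges of these 3 loci overlapped with each other and with neither Solyc04g071610 nor Solyc04g071620.

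The TAS14 dehydrin, Solyc02g084850, stood at 631, 34.9 and 391 FPKM in WT replicates 1, 2 and 3, and at 637, 14.3 and 29.3 FPKM in slgols2 replicates 1, 2 and 3. High and low libraries occurred in both genotypes, and the groups overlapped. These values rest on 11687, 638 and 6472 recovered reads in WT and 12147, 243 and 508 in slgols2, so counting error is small beside the spread. The highest and lowest libraries differed 18.1-fold within WT and 44.7-fold within slgols2. The SD within groups was 2.56 on the log2(FPKM + 1) scale, larger than for 99.9% of tested models. The mean was 352 ± 299.8 FPKM (SD, n = 3) in WT against 227 ± 356 FPKM (SD, n = 3) in the mutant. The log2 difference was -1.64 with a standard error of 1.67 and a 95% interval from -5.68 to 2.41 (limma adjusted p = 0.734), so an effect of genotype on this locus was not detectable at this spread. Single libraries moved this difference. It was -3.27 without slgols2 replicate 1 (limma unadjusted p = 0.0481), -0.57 without slgols2 replicate 2 and -1.07 without slgols2 replicate 3. It was -0.83, -2.90 and -1.18 without WT replicates 1, 2 and 3. The limma adjusted p over these 6 fits lay between 0.571 and 0.962.

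Seeds are rich in dehydrins, so 10 seed loci, storage proteins and oleosins recalled from the literature, were summed in each library. The sums were 10.5, 13.98 and 51.2 FPKM in WT replicates 1, 2 and 3 and 1.77, 86.4 and 5.32 FPKM in slgols2 replicates 1, 2 and 3. Beside these sums, TAS14 stood at 631, 34.9 and 391 FPKM in WT replicates 1, 2 and 3. In slgols2 replicates 1, 2 and 3 it stood at 637, 14.3 and 29.3 FPKM. The part of seed RNA in its level was not tested. Of the 10 loci, Solyc03g112440, Solyc06g060840 and Solyc08g078160 were listed at 0 in all 6 libraries, and Solyc06g034040 was at 0 in slgols2 replicate 1 alone; these 4 were named after their values were seen. The heat shock sum was high in slgols2 replicate 1, where TAS14 was at 637 FPKM, and in slgols2 replicate 2, where it was at 14.3 FPKM.

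The second dehydrin, Solyc04g082200, was steadier. It stood at 462, 403 and 317 FPKM in WT and at 421, 655 and 538 FPKM in slgols2. A pair of slgols2 libraries, replicates 2 and 3, lay above every WT library, and slgols2 replicate 1 lay inside the WT range. Without slgols2 replicate 3 the log2 difference was 0.43 (limma adjusted p = 0.41). The means were 394 ± 72.8 and 538 ± 116.9 FPKM (SD, n = 3 each), with a log2 difference of 0.44, a standard error of 0.26 and a 95% interval from -0.18 to 1.06 (limma adjusted p = 0.553). Its rank by FPKM among all models of a library lay between 44 and 138, whereas TAS14 ranked between 47 and 3764. Within a library, TAS14 was 1.37, 1.23 and 1.52 times as high as Solyc04g082200 in WT replicates 1 and 3 and slgols2 replicate 1, and 0.0864, 0.0218 and 0.0544 times as high in WT replicate 2 and slgols2 replicates 2 and 3.

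Other dehydrin and LEA loci fixed as a list were low. Of the 4, 2 passed the filter and none was called, where 0.229% of all tested models were called. Solyc02g062390 stood at 3.33, 1.78 and 1.58 FPKM in WT and at 0.267, 0.0852 and 0.167 FPKM in slgols2, with no overlap. These were 85, 45 and 36 recovered reads in WT against 7, 2 and 4 in slgols2. Its log2 difference was -1.43 with a standard error of 0.23 and a limma adjusted p of 0.105, and -3.57 with limma-voom (adjusted p = 0.175), the pseudocount of 1 being large beside its FPKM values. Solyc01g109920 stood between 0.439 and 2.70 FPKM, highest in slgols2 replicate 2 and next in WT replicate 2, with a log2 difference of 0.07 (limma adjusted p = 0.964). Solyc10g078770 lay between 0.133 and 0.997 FPKM. Solyc02g084840, next to the TAS14 locus by number, had 2 recovered reads in slgols2 replicate 2 and was listed at 0 in the other 5 libraries.

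The ASR locus Solyc04g071610 was among the highest gene models of the shoulder pericarp by FPKM. It stood at 5955, 4707 and 5139 FPKM in WT and at 4984, 5958 and 5206 FPKM in slgols2, which ranked it between 2 and 5 among all models of each library. It took 1.2% to 1.63% of the FPKM sum of a library. The groups overlapped, with the highest library 1.27 times the lowest. The mean was 5267 ± 634 FPKM (SD, n = 3) in WT against 5383 ± 510.4 FPKM (SD, n = 3) in the mutant. The log2 difference was 0.03 (standard error 0.20, limma adjusted p = 0.964), and its 95% interval ran from -0.45 to 0.52.

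The ASR locus Solyc04g071580 differed from it in level and in pattern. It stood at 384, 74.9 and 122 FPKM in WT replicates 1, 2 and 3 and at 32.5, 26.5 and 29.7 FPKM in slgols2. All 3 slgols2 libraries lay below all 3 WT libraries, the lowest WT value being 2.31 times the highest slgols2 value. Spread was uneven: the highest and lowest libraries differed 5.13-fold in WT and 1.22-fold in slgols2. Means were 194 ± 167 and 29.6 ± 2.972 FPKM (SD, n = 3 each), a ratio of 6.55. The log2 difference was -2.33 with a standard error of 0.58 and a 95% interval from -3.73 to -0.93 (limma unadjusted p = 0.00617, adjusted p = 0.227). Without WT replicate 1, the highest library, the log2 difference was -1.66 (limma adjusted p = 0.297). Without slgols2 replicate 3 it was -2.33 (limma adjusted p = 0.14). The locus passed the threshold over all models in none of these fits, nor with limma-voom (adjusted p = 0.269). It did with sample quality weights (limma adjusted p = 0.0387), a setting in which 12.9% of all tested models passed.

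The ASR locus Solyc04g071620 was the least abundant of the 5 and had the smallest unadjusted p. It stood at 7.64, 7.77 and 11.2 FPKM in WT and at 2.62, 1.89 and 2.26 FPKM in slgols2, again with no overlap, and the lowest WT value was 2.92 times the highest slgols2 value. These were 224, 225 and 293 recovered reads against 79, 51 and 62. Means were 8.87 ± 2.01 and 2.26 ± 0.365 FPKM (SD, n = 3 each), a ratio of 3.93. The log2 difference was -1.59 with a standard error of 0.19 and a 95% interval from -2.05 to -1.13. Its limma adjusted p was 0.0508, just short of the threshold (unadjusted p = 0.000123). Without slgols2 replicate 3, the library that stood apart, it passed with the same log2 difference of -1.59 (adjusted p = 0.041), when 1.78% of all tested models passed. It also passed with sample quality weights (adjusted p = 0.00571). With any other single library left out the adjusted p lay between 0.0969 and 0.188. For Solyc04g071580 and Solyc04g071620 a two-sided exact permutation test gave p = 0.1, the smallest that 3 against 3 libraries allow, and for Solyc04g071610 it gave 0.7.

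**Figure D2:**
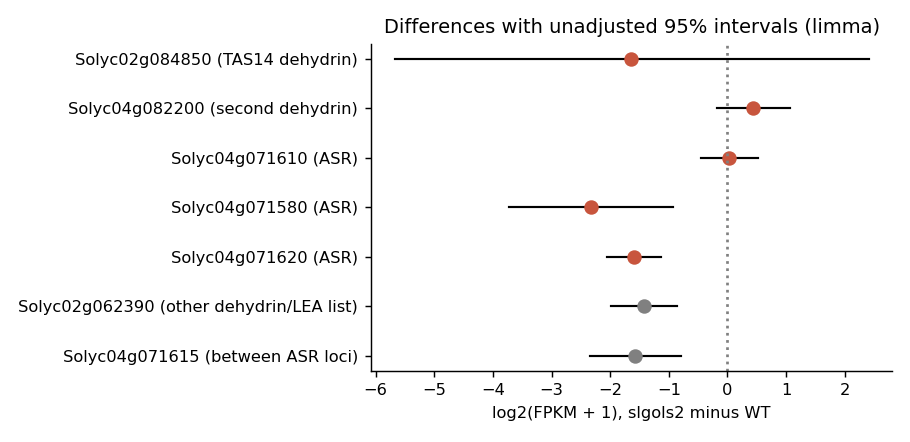
Difference between slgols2 and WT on the log2(FPKM + 1) scale for the 5 loci (red) and for 2 further models named in the text (grey), with 95% intervals from limma that are not adjusted for the number of models. Intervals of Solyc04g071580 and Solyc04g071620 lie below 0, those of Solyc04g071610 and Solyc04g082200 include 0, and that of Solyc02g084850 runs from -5.68 to 2.41.

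The balance within the ASR cluster can be read from ratios of FPKM in the same library. Solyc04g071610 was 15.5, 62.9 and 42.2 times as high as Solyc04g071580 in WT and 153, 225 and 176 times as high in slgols2. It was 779, 606 and 459 times as high as Solyc04g071620 in WT and 1900, 3150 and 2300 times as high in slgols2. Both ratios were higher in every slgols2 library than in any WT library, which restates the values above. ASR genes resemble one another in sequence, and how the authors counted reads that fit more than 1 gene is not given in the sources used here. The FPKM of Solyc04g071610 was 459 to 3150 times that of Solyc04g071620. The levels of the low loci of the cluster, Solyc04g071620 among them, may therefore hold reads placed at the wrong gene. The part of such reads in the result was not tested.

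The other 2 loci of the cluster, listed as ASR loci by recalled identifier, were under the filter of a mean of 1 FPKM. In the reference, 1 of the 5 genes of the stretch has no ASR symbol, and which identifier it matches was not settled. Solyc04g071590 had 8, 11 and 5 recovered reads in WT and 28, 41 and 6 in slgols2, where it reached 2.53 FPKM. The groups of Solyc04g071590 overlapped. Solyc04g071600 had 1, 0 and 0 reads in WT and 6, 3 and 9 in slgols2, at most 0.439 FPKM. All slgols2 libraries of Solyc04g071600 thus lay above all WT libraries, at very few reads and with no test. A further model, Solyc04g071615, is numbered between Solyc04g071610 and Solyc04g071620 and was singled out after its values were seen. It stood at 222, 187 and 400 FPKM in WT and at 83.9, 74.5 and 99.1 FPKM in slgols2, without overlap. Its log2 difference was -1.57 with a standard error of 0.32 and a limma adjusted p of 0.178. No strand setting is given, and whether this model overlaps a neighbour is not known here, so reads of the 3 adjoining models may not be told apart. Of the 6 models from Solyc04g071580 to Solyc04g071620, 4 were tested. In 3 of those all WT libraries lay above all slgols2 libraries, which held for 9.59% of all tested models. The 3 are Solyc04g071580 and Solyc04g071620, already given, and Solyc04g071615, chosen after its values were seen. The count therefore adds no separate result.

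**Figure D3:**
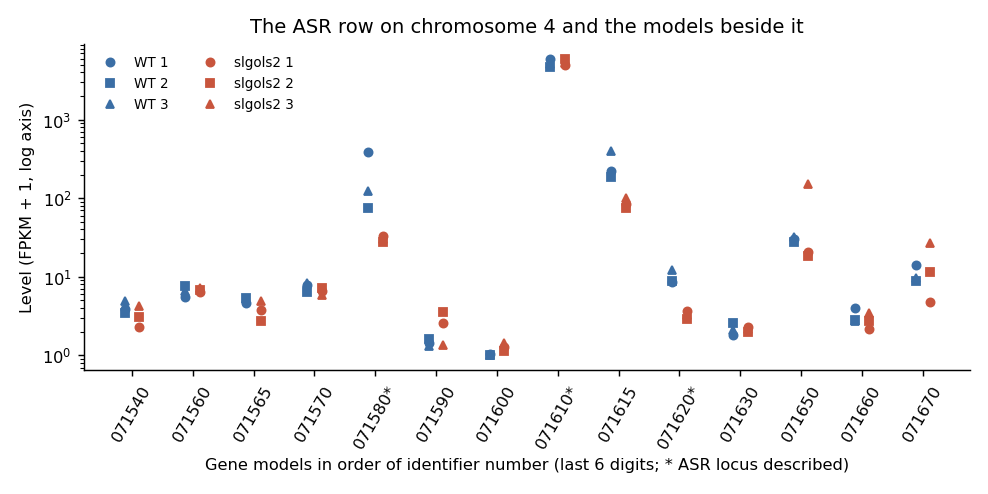
Level of gene models (FPKM + 1, log axis) along the ASR row of chromosome 4 in the order of their identifier numbers, with WT in blue and slgols2 in red and a marker shape per replicate number; models under the filter are left out except Solyc04g071590 and Solyc04g071600. Blue points lie above red points at Solyc04g071580, Solyc04g071615 and Solyc04g071620, while Solyc04g071610 stands at 4707 to 5958 FPKM in both groups. At Solyc04g071600, which reached at most 0.439 FPKM, red points lie above blue points.

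Models within 50 numbers of the 5 loci were not called either, where 0.229% of all tested models were called. Beside Solyc04g071610, 9 of 12 such models were tested and their log2 differences ran from -2.33 to 0.37, with 3 separated, namely the 3 lower ones just given. The 9 include Solyc04g071580 (-2.33) and Solyc04g071620 (-1.59). Of the separated models, only Solyc04g071615 was not itself one of the 5 loci. Beside TAS14, 7 of 10 were tested, with log2 differences from -1.02 to 0.32 and 1 separated, lower in slgols2. Beside Solyc04g082200, 4 of 10 were tested, with log2 differences from 0.08 to 1.00 and 0 separated. Of all tested models, 19.2% were separated in either direction. On chromosome 4, 11 models were called in all, and the nearest to the ASR loci, Solyc04g051240, lay 455 to 460 models away. On chromosome 2 the called model nearest to TAS14, Solyc02g084037, lay 87 models away.

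Genes of ABA synthesis, perception and response were set beside these loci from lists of recalled identifiers. Of 46 such loci, 34 were tested, and none was called by limma or by limma-voom. Over all tested models limma called 0.229% and limma-voom 0.00%, so none among 34 says little about these loci. An unadjusted p under 0.05 was found for 7 of the 34 by limma, 6 lower and 1 higher in slgols2, against 12.0% of all tested models.

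ABA synthesis and breakdown enzymes had 5 of 8 tested loci higher and 3 lower in mean, with a median log2 difference of 0.13 and none under an unadjusted p of 0.05. All 8 tested ABA receptor loci were higher in mean, by 0.01 to 0.66 on the log2 scale, and none had an unadjusted p under 0.05. The 6 tested loci of SnRK2 kinases, which carry the ABA signal to its targets, lay within -0.12 and 0.13. In none of these 3 lists did a tested locus have groups that did not overlap, which held for 19.2% of all tested models. Of all tested models, 49.9% were lower in mean.

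PP2C phosphatases, which hold ABA signalling back and are themselves induced by ABA, had 6 of 7 tested loci lower in mean, with a median log2 difference of -0.49. Unadjusted p was under 0.05 for 3 lower and 1 higher. Of all tested models, 49.9% were lower in mean, and 6.72% were lower with an unadjusted p under 0.05 (12.0% in either direction). Solyc05g052980 stood at 92.5, 74.3 and 157 FPKM in WT and at 28.5, 25.9 and 38.5 FPKM in slgols2, with no overlap and a log2 difference of -1.72 (standard error 0.32, limma adjusted p = 0.153). Solyc03g096670 stood at 58.2, 46.1 and 29.5 FPKM in WT and at 3.11, 4.95 and 18.6 FPKM in slgols2, a log2 difference of -2.49 (standard error 0.60, limma adjusted p = 0.218). Solyc12g096020 went the other way, at 14.5, 17.5 and 16.5 FPKM in WT and 24.0, 27.0 and 29.5 FPKM in slgols2 (log2 difference 0.69, limma adjusted p = 0.213). These loci were named after their values were seen. Without slgols2 replicate 3, 2 of the 7 PP2C loci passed the adjusted threshold, when 1.78% of all tested models passed. With sample quality weights 4 did, when 12.9% of all tested models passed. Of the transcription factors of ABA and dehydration, 4 of 5 tested loci were lower in mean, against 49.9% of all tested models. An unadjusted p under 0.05 was found for 3 of them, against 6.72% of all tested models that were lower. The lowest limma adjusted p was 0.306.

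**Figure D4:**
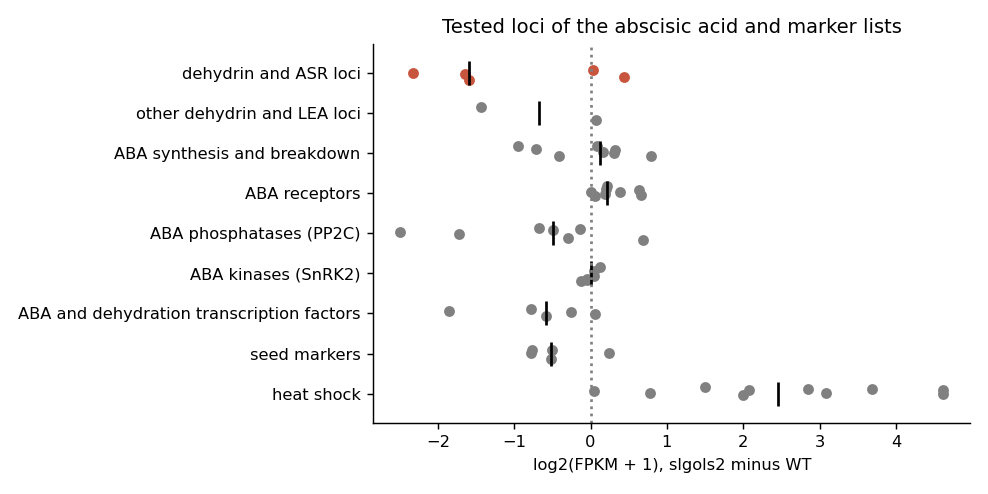
Difference between slgols2 and WT on the log2(FPKM + 1) scale for each tested locus of the lists, with a black line at each list's median and points spread at random in height. The 5 dehydrin and ASR loci (red) run from -2.33 to 0.44, the SnRK2 kinases from -0.12 to 0.13, and the heat shock loci, high in slgols2 replicates 1 and 2, up to 4.62.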

How the data were processed

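RNA was sequenced from pericarp of 3 WT and 3 slgols2 samples, grouped by title. The authors deposited, per the file headers, 1 table of FPKM values, fragments scaled by gene length and depth, with a column per library. The submitters' processing notes name HISAT2 2.1.0 and DESeq 1.38.3; what counter, genome build, annotation, strand and multi-read setting were used is not given in the sources used here. Models with a mean FPKM of at least 1 were tested with limma 3.58.1 (R 4.3.3) on log2(FPKM + 1) with a single genotype term, with an intensity trend in the variance prior, two-sided, adjusted by Benjamini-Hochberg over all 15695. Differences on this scale are understated for low genes. FPKM values are not counts; read numbers were recovered from their steps, whole within 0.02 reads for 99.97% of tested models, and used for depth, for the reads given beside some values and for limma-voom. Both steps were tried on simulated data. For limma these had the same noise in every library of a gene, so they do not show how it does with uneven libraries such as these. The 5 loci and 9 lists (73 recalled loci) were chosen with earlier results of these data known. By rule, the text names the 5 loci, the other dehydrin, LEA and ASR loci, called neighbours or list loci, and 1 model most like each locus; others are said to be chosen after their values were seen. Alternatives covered pseudocount, filter, scaling, variance prior, library weights, replicate block, recovered reads and each library left out.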

Additional observations from a re-analysis of the deposited data

How the results depend on the processing

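Each locus was refitted under 16 alternatives. The log2 difference ran from -3.27 to -0.57 for Solyc02g084850, from 0.29 to 0.61 for Solyc04g082200, from -2.84 to -1.66 for Solyc04g071580 and from -1.94 to -1.42 for Solyc04g071620, with no change of sign. For Solyc04g071610 it ran from -0.04 to 0.23 and was -0.04 without WT replicate 2 and without slgols2 replicate 2; over the 6 fits that leave out a library it ran from -0.04 to 0.13. For Solyc04g071620 those 6 fits gave -1.67 to -1.42. With sample quality weights, which gave slgols2 replicate 3 a weight of 0.173 and replicate 2 one of 4.83, Solyc04g071580 (-2.45, adjusted p = 0.0387) and Solyc04g071620 (-1.64, adjusted p = 0.00571) passed, so 2 of the 5 loci did, when 12.9% of all models passed. That setting called 1 other dehydrin or LEA locus, 4 PP2C loci, 2 transcription factors, 7 heat shock loci and 2028 models in all. Leaving out each library in turn called 0 to 1 of the 5 loci, 0 to 2 PP2C loci, 0 to 7 heat shock loci and 7 to 279 models, the higher end each time without slgols2 replicate 3. Models called numbered 36 as reported, 55 unfiltered, 20 when the pseudocount was 0.1, 15 when the mean had to reach 5 FPKM and 0 in limma-voom. The filters alter how many models are tested; beyond that the cause was not tested. A block for the replicate number left 1 model called, and none of the 5 loci; Solyc04g071620 had -1.59 (adjusted p = 0.208). Nothing shows that equal numbers mark paired libraries: deviations of same-numbered libraries correlated at -0.15, 0.0888 and -0.165. Depth limits the loci with few reads, Solyc04g071590, Solyc04g071600 and Solyc02g062390 among them.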

Other observations

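For each of the 5 loci, the 1 model with the highest Pearson correlation of log2(FPKM + 1) over the 6 libraries was looked up among 8684 models with a mean of at least 5 FPKM. These are descriptions, each the best of 8684 candidates over 6 libraries. For TAS14 it was Solyc04g082400 (r = 0.975), which ran only from 11.7 to 15.9 FPKM where TAS14 ran from 14.3 to 637 FPKM, and 0.242% of candidates had an r above 0.9. For Solyc04g082200 it was Solyc04g010100 (r = 0.9769), for Solyc04g071610 it was Solyc03g122240 (r = 0.9612), for Solyc04g071580 it was Solyc07g049200 (r = 0.996) and for Solyc04g071620 it was Solyc01g095670 (r = 0.9948). Solyc07g049200 stood at 22.5, 9.42 and 13.3 FPKM in WT and at 7.14, 6.27 and 6.48 FPKM in slgols2, in the same order of libraries as Solyc04g071580.

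Among the 5 loci themselves, the correlation over the 6 libraries was 0.81 between Solyc04g071580 and Solyc04g071620 and -0.81 between Solyc04g082200 and Solyc04g071620. The dehydrins correlated at -0.64 with each other. Solyc04g071615 correlated at 0.97 with Solyc04g071620 and at -0.16 with Solyc04g071610, the models numbered on either side of it. The libraries of the 2 genotypes make up these points, so a difference between the genotypes enters each value.

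Of the tested loci in the lists, the one with the highest correlation with TAS14 was Solyc07g056570 of the ABA synthesis and breakdown list (r = 0.78), chosen after its values were seen. It stood at 149, 61.6 and 136 FPKM in WT replicates 1, 2 and 3 and at 75.1, 62.8 and 59.9 FPKM in slgols2 replicates 1, 2 and 3. Its 3 highest libraries were the 3 in which TAS14 stood at 391 FPKM or more, although 75.1 FPKM in slgols2 replicate 1 was little above the lower libraries. By rank the correlation was 0.66 (Spearman). Other loci went the other way as strongly. Solyc07g066480 of the same list, also named after its values were seen, and Solyc01g109920 of the dehydrin and LEA list each correlated at -0.77 (Pearson) with TAS14.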
